A study of Mus musculus with 12 samples.

Results

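The genes described here are 31 neuronal and synaptic genes measured by RNA sequencing in subcutaneous prostate tumors of mice. They were taken from a table of 55401 genes by their symbols, and all 31 were among the 20818 genes that passed the filter on low counts. The genes were chosen by the measured counts of these same tumors, because synaptic genes were higher in the A300 tumors than in the Control tumors, so the values of A300 are given as a description and without a test.

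The libraries came from 12 tumors, 3 in each of 4 groups, collected 21 days after implantation. Each mouse was implanted under the skin of both flanks with 125000 TC2Ras cells, a mouse prostate cancer line with oncogenic Ras signaling, and the tumor tissue of its 2 flanks was combined into 1 sample. Control tumors grew from TC2Ras cells alone in mice whose drinking water held 0 ppb of inorganic arsenic (iAs). ASC tumors grew from TC2Ras cells mixed with 1% ASC-GFP, adipose-derived stromal cells isolated from male C57BL/6 mice that carry GFP under the ubiquitin C promoter, at 0 ppb iAs. A300 tumors grew from TC2Ras cells alone in mice given 300 ppb iAs, and ASC300 tumors from TC2Ras cells with 1% ASC-GFP in mice given 300 ppb iAs. All mice had first received low-arsenic AIN-76A chow and Milli-Q water. The labels name adipose-derived mesenchymal/stromal cells as the cell type of every library, whereas the protocols describe excised tumors. A tumor is a mixture of implanted cells and host tissue, and in such bulk samples fewer cells of a type and less RNA per cell cannot be told apart.

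Synapses are the contacts through which neurons signal. In the sending cell, vesicles loaded with transmitter by transporters such as Slc17a7 (glutamate) and Slc32a1 (GABA) are held at the membrane and fused with it by a release machinery that includes Snap25, Syt1 and the complexins. In the receiving cell, AMPA and NMDA receptors answer to glutamate and are anchored by scaffold proteins of the Shank, Dlg and Dlgap families, while neurofilaments support the axon. Most of these genes are used mainly by neurons, and a few, among them Dlg4 and Shank3, are also used in other tissues.

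Total counts ran from 39157647 to 55168642 per tumor. Low counts were more frequent at 4 (1137 to 1298 genes per tumor) than at 3 (618 to 795) or 5 (380 to 414), so a floor of 12 counts was used, which would be 3 read pairs if 1 pair gave 4 counts. Levels between tumors are given as raw counts or as CPM, counts put on the same depth in every tumor by edgeR's TMM normalization, and levels between genes as RPKM, which also divides by the exon length.

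Control replicate 1 stood apart from the other 11 tumors. It had 7 of the 31 genes at 0 counts (Snap25, Gria1, Gria2, Grin1, Grin2a, Slc32a1 and Fgf12) and 12 at or under the floor, while no other tumor had any of the 31 at 0. It was the lowest of the 12 tumors for 23 of the 31 genes, against 10% of all genes tested. This tumor is in the contrast that chose the genes, so its counts and ranks over the 31 only describe the list. It also had 74 genes at 0 that were above the floor in each of the other 11 tumors, where every other tumor had between 1 and 9 such genes. The medians of the comparisons with Control and the fold changes of the 31 genes named in them are therefore also given without this tumor.

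**Figure D1:**
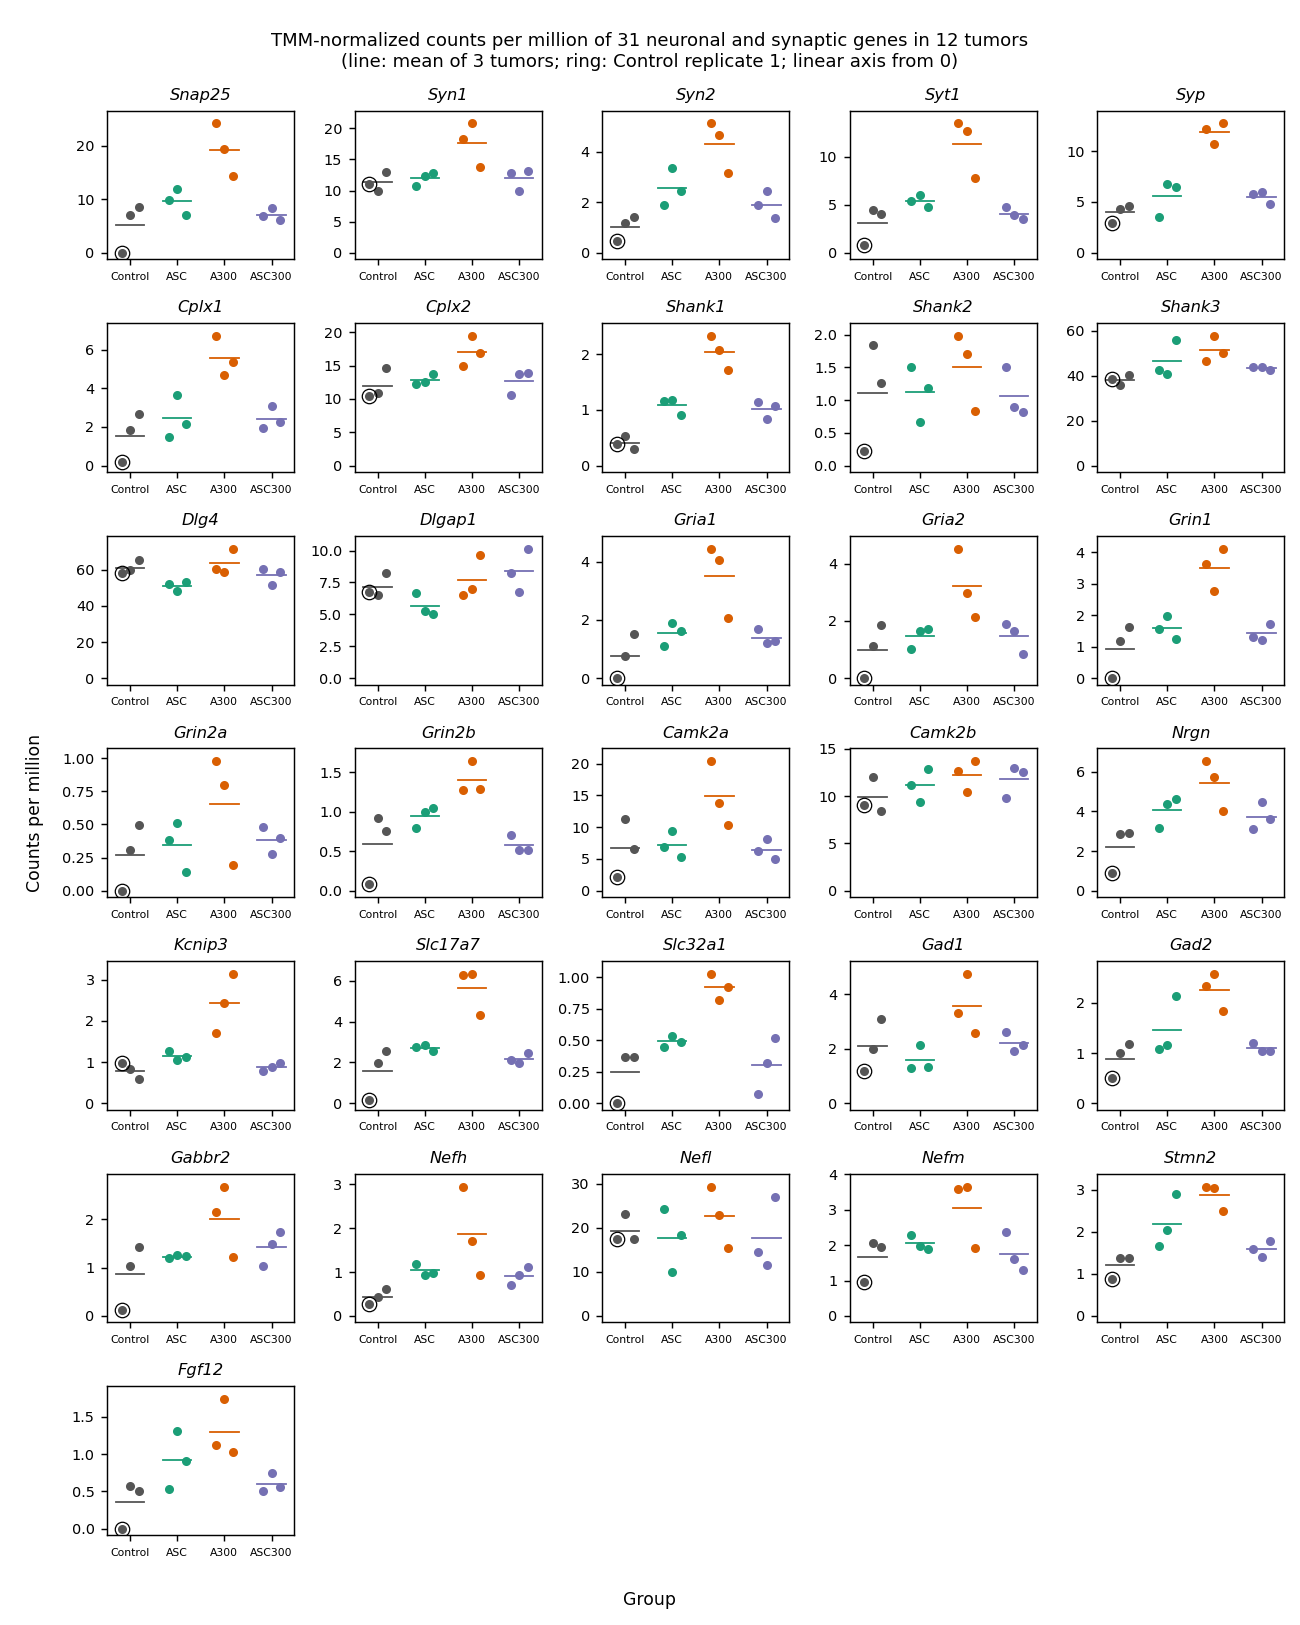
TMM-normalized CPM (vertical axes, linear, from 0) of the 31 genes in the 12 tumors, with the 4 groups on the horizontal axes, a point for each tumor and a line at the mean of 3 tumors. The ring marks Control replicate 1, which was the lowest of 12 tumors for 23 of 31 genes, and the A300 points lay above all other points for 14 of 31 genes.

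The promoter sequences of 20 of the 31 genes were matched in RefSeq (GRCm38.p6), and the 250 bases before the start site are shown for 3 genes with different transmitter-related roles and different levels: Syn1, a coat protein of synaptic vesicles, Grin1, the obligatory subunit of NMDA receptors, and Slc17a7, the vesicular glutamate transporter. They lie at chrX:20920919-20921168 (minus strand), chr2:25319188-25319437 (minus strand) and chr7:45163671-45163920 (plus strand) and are written 5′ to 3′ in the direction of transcription. Capitals in Syn1 mark, in this order, the left part of the RE1 element (TCAGCACC), to which the repressor REST binds, and the cyclic AMP response element CRE (TGACGTCA).
Syn1: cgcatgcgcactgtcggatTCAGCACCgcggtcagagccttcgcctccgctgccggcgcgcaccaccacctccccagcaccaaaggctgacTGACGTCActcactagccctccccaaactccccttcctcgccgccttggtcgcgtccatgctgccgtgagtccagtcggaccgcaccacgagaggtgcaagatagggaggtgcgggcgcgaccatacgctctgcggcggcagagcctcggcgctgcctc
Grin1: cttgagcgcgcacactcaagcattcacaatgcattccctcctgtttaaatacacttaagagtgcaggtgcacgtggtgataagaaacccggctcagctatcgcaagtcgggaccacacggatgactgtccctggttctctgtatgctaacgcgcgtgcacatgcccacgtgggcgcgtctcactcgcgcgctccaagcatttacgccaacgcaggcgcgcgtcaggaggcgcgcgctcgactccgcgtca
Slc17a7: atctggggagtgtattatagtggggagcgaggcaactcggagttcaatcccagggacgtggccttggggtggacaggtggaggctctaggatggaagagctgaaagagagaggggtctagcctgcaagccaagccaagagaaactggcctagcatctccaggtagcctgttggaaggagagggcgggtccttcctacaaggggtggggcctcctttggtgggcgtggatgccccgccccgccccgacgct

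The RE1 letters began 231 bases and the CRE letters 159 bases before the start of Syn1, and neither was found in the windows of Grin1 and Slc17a7. Both strands were searched over 250 bases before and 50 after the start. The RE1 letters were held by 1 of the 20 matched genes (Syn1) and by 1.85% of all 27025 genes with a promoter, and the CRE letters by 1 of 20 (Syn1) and 2.03% of all genes. A TATA box (TATAAA) was held by 1 of 20 genes (Gad1) and 15.7% of all genes. The printed windows differed in base composition, with a GC content of 68.0% for Syn1, 58.8% for Grin1 and 61.2% for Slc17a7, and with 27, 27 and 9 CG pairs. Rest itself, which was looked up because of its element, had between 1708 and 2580 counts in every tumor. On the CPM scale the A300 tumors (41.4 to 44.7 CPM) lay below the Control tumors (48.0 to 56.0 CPM) without overlap. The log2 fold change was -0.23, and 15.4% of all genes tested lay below Control in this way. Rest was at 49.6, 49.9 and 39.8 CPM in ASC and at 45.7, 47.8 and 44.0 CPM in ASC300. Thus 1 ASC tumor was below every A300 tumor, and 1 ASC300 tumor was within their range. A link between Rest and the levels of the neuronal and synaptic genes was not tested.

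Measured per length, most of the genes were at low levels in every group. Mean RPKM in Control was under 1 for 24 of the 31 genes, and in A300 for 18. In Control the highest mean levels were those of Nefl, the light neurofilament subunit (5.74 RPKM), Dlg4, the scaffold protein PSD-95 (4.62 RPKM), Shank3 (4.16 RPKM) and Syn1 (3.43 RPKM). The lowest were those of the NMDA receptor subunits Grin2a (0.0150 RPKM) and Grin2b (0.0237 RPKM) and of Shank1 (0.0391 RPKM). In A300, Nefl (6.69 RPKM), Shank3 (5.59 RPKM) and Syn1 (5.34 RPKM) were highest, and Grin2a (0.0366 RPKM) and Grin2b (0.0564 RPKM) were again lowest. Control and A300 thus had 3 genes, Nefl, Shank3 and Syn1, in common among their 4 highest, and Dlg4 was the other one in both (4.81 RPKM in A300).

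The first comparison asks how the levels in tumors of mice given iAs stood beside those of Control tumors, in the absence of ASC. All 31 genes had a higher fitted level in A300, where 47.5% of all genes tested did, with a median log2 fold change of 1.29 beside -0.03 over all genes tested, and with a range from 0.06 (Dlg4) to 2.30 (Shank1). The 3 A300 tumors lay above the 3 Control tumors without overlap for 21 of the 31 genes, where 14.5% of all genes tested did so, and below them for none, where 15.4% did. With Control replicate 1 set aside, 21 of the 31 genes again had all A300 tumors above the Control tumors, where 19.6% of all genes did. The fitted change was at least 1.5-fold for 24 of 31, where 11.0% of all genes were. Since this contrast chose the genes, these shares only describe the list. Without Control replicate 1 the median log2 fold change was 1.07, and 30 of the 31 genes were higher, where 52.0% of all genes were. Shank2, a postsynaptic scaffold gene, was then at -0.03. Shank1 and Dlg4 were at 2.29 and 0.04 without that tumor.

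The 7 genes of the presynaptic vesicle and its release showed this most evenly: all 7 lay above Control without overlap, and 6 also lay above every one of the 9 tumors outside A300. Snap25 (ENSMUSG00000027273), a membrane protein of the fusion machinery, had 966, 945 and 811 counts in A300 replicates 1, 2 and 3 and 0, 368 and 392 in Control. It had 492, 442 and 302 counts in ASC and 367, 421 and 314 in ASC300. The A300 tumors were the 3 highest of 12, and the ASC and ASC300 tumors lay around Control replicates 2 and 3. Its mean was 19.3 ± 4.92 CPM (SD, n = 3) in A300, 5.19 ± 4.55 CPM in Control, 9.61 ± 2.42 CPM in ASC and 7.12 ± 1.08 CPM in ASC300.

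Syt1 (ENSMUSG00000035864), the calcium sensor of fast release, had 539, 621 and 441 counts in A300, 39, 233 and 185 in Control, 269, 225 and 207 in ASC and 259, 200 and 176 in ASC300. Syp, a vesicle membrane protein often used as a marker of synapses, had 485, 522 and 720 counts in A300, 143, 227 and 213 in Control, 173, 254 and 278 in ASC and 309, 304 and 244 in ASC300. For both genes the A300 tumors were the 3 highest and Control replicate 1 the lowest. Cplx1, a complexin that clamps and assists fusion, had 268, 230 and 303 counts in A300 and 8, 95 and 123 in Control. Its relative Cplx2 was more abundant and more even, with 598, 951 and 954 counts in A300 and 506, 566 and 678 in Control. The fitted log2 fold change was 1.85 for Cplx1 and 0.51 for Cplx2, and 1.33 and 0.44 without Control replicate 1.

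The 2 synapsins, which tether vesicles, differed in a similar way. Syn1 had 733, 1016 and 777 counts in A300 and 538, 516 and 596 in Control, and Control replicate 1 lay between the other 2 Control tumors on the CPM scale (11.1 CPM beside 9.90 and 12.9). Syn2 had 205, 228 and 180 counts in A300, 23, 61 and 65 in Control, 93, 125 and 105 in ASC and 101, 124 and 70 in ASC300. On the CPM scale its highest ASC tumor (3.35) was above its lowest A300 tumor (3.18), so that Syn2 was the presynaptic gene whose A300 tumors were not all above the 9 others.

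The 5 scaffold genes of the postsynaptic density did not share 1 pattern. Shank1 (ENSMUSG00000038738), a master scaffold that is largely restricted to the brain, had few counts throughout, with 93, 102 and 97 in A300, 19, 28 and 14 in Control, 57, 44 and 39 in ASC and 61, 42 and 54 in ASC300. Its 4 groups were each narrow, and Control replicate 1 was not its lowest tumor. Shank3 had between 1512 and 2840 counts in every tumor, and its A300 tumors lay above Control but not above all 9 others. Dlg4 had 2425, 2873 and 4060 counts in A300 and 2819, 3128 and 3019 in Control, and Dlgap1, which links Dlg4 to the Shank proteins, had 261, 341 and 545 in A300 and 325, 340 and 379 in Control. For Dlg4 and Dlgap1 the A300 and Control tumors overlapped, with fitted log2 fold changes of 0.06 and 0.11, and of 0.04 and 0.08 without Control replicate 1. Shank2 had 79, 83 and 47 counts in A300 and 11, 96 and 58 in Control, which also overlapped.

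All 5 glutamate receptor subunits were at or under the floor in Control replicate 1, and 4 of them were at 0 there. Gria1 (ENSMUSG00000020524), an AMPA receptor subunit, had 178, 198 and 118 counts in A300, 0, 40 and 70 in Control, 55, 71 and 70 in ASC and 90, 62 and 65 in ASC300. Gria2, the subunit that keeps AMPA receptors closed to calcium, had 181, 146 and 122 counts in A300 and 0, 58 and 85 in Control. Grin1 (ENSMUSG00000026959) had 145, 135 and 233 counts in A300, 0, 61 and 75 in Control, 77, 74 and 53 in ASC and 71, 62 and 87 in ASC300. For these 3 genes the A300 tumors were the 3 highest of 12. Grin2b, an NMDA subunit prominent in young neurons, had 51, 80 and 73 counts in A300 and 4, 48 and 35 in Control, and its A300 tumors were also the highest on the CPM scale. Grin2a, the subunit of mature synapses, had 39, 39 and 11 counts in A300 and 0, 16 and 23 in Control, so that A300 replicate 3 was itself under the floor and the groups overlapped.

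Of the 4 genes of calcium and calmodulin signaling, 2 lay above Control without overlap. Nrgn, a postsynaptic protein that binds calmodulin, had 261, 280 and 227 counts in A300 and 44, 148 and 134 in Control. Kcnip3, a calcium-binding protein that acts on potassium channels and on transcription, had 68, 119 and 178 counts in A300, 47, 43 and 27 in Control, 63, 39 and 48 in ASC and 42, 45 and 50 in ASC300. Control replicate 1 was the highest Control tumor for Kcnip3, whose log2 fold change was 1.61 with that tumor and 1.79 without it. The kinase subunits Camk2a, abundant in forebrain neurons, and Camk2b overlapped between A300 and Control, with 814, 678 and 583 beside 102, 592 and 305 counts for Camk2a and 507, 510 and 774 beside 440, 628 and 387 for Camk2b.

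The genes of transmitter synthesis, loading and GABA reception included both glutamate and GABA neuron genes. Slc17a7 (ENSMUSG00000070570) had 252, 310 and 246 counts in A300, 8, 103 and 118 in Control, 136, 107 and 109 in ASC and 114, 100 and 124 in ASC300. Slc32a1, which loads GABA into vesicles, had 41, 40 and 52 counts in A300 and 0, 19 and 17 in Control. For both transporters every A300 tumor was above every other tumor. The GABA-synthesizing enzyme Gad2 had 93, 126 and 104 counts in A300 and 24, 52 and 54 in Control, without overlap. Gad1, the other such enzyme, had 133, 232 and 147 beside 58, 103 and 143, and the GABA-B receptor subunit Gabbr2 had 86, 131 and 69 beside 6, 54 and 66, and on the CPM scale both overlapped.

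Among the genes of the neuronal cytoskeleton, Nefh, the heavy neurofilament subunit, had 118, 84 and 53 counts in A300 and 13, 23 and 28 in Control, and Stmn2, a regulator of microtubules in growing axons, had 123, 149 and 141 beside 43, 72 and 64. Neither overlapped. The medium subunit Nefm (143, 179 and 108 beside 47, 107 and 90 counts) and Nefl (1175, 1124 and 876 beside 851, 1202 and 809) did overlap. Fgf12, an intracellular partner of sodium channels, had 45, 85 and 58 counts in A300, 0, 30 and 23 in Control and 26, 49 and 39 in ASC, where 1 ASC tumor exceeded the lowest A300 tumor on the CPM scale.

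The highest and lowest tumors were largely the same from gene to gene. In A300, 14 of the 31 genes had all 3 tumors above all 9 others, where 2.08% of all genes tested did. The genes were standardized over the 12 tumors on the log2 CPM scale and averaged, which gave -1.95, -0.28 and -0.14 in the 3 Control tumors, -0.12, -0.06 and 0.08 in ASC, 1.06, 1.06 and 0.65 in A300 and -0.12, -0.17 and -0.01 in ASC300. The 8 tumors other than A300 and Control replicate 1 thus lay within a narrow band. Over the 12 tumors the Pearson correlation of each gene with this mean, of which it is a part, had a median of 0.87 and ran from 0.10 (Dlgap1) to 0.98 (Slc17a7), and Dlg4 (0.21) and Nefl (0.27) were also low. The points of these correlations share their library and its depth. The median coefficient of variation over the genes was 47.7% in Control, 19.2% in ASC, 23.6% in A300 and 18.3% in ASC300.

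A gene's place in Control replicate 1 and its place in A300 were compared against the 8 remaining tumors. For the 12 genes at or under the floor in Control replicate 1, mean A300 CPM was 2.27 times the mean of the 8 tumors at the median (range 1.24 to 2.54). For the 19 genes above the floor the median was 1.62 (range 1.08 to 2.58), and Control replicate 1 was then at 0.56 of the 8 tumors at the median, with a range from 0.17 for Syt1 to 1.04 for Dlg4. A count of 0 has a limit of its own: 12 counts in Control replicate 1 correspond to 0.248 CPM, which is 3.02% of the mean of the 8 tumors for Snap25 but 66.2% for Grin2a. The 0 of Snap25 was therefore far under the other tumors, while that of Grin2a could not be told from a modestly lower level. The floor covers counting error only.

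**Figure D2:**
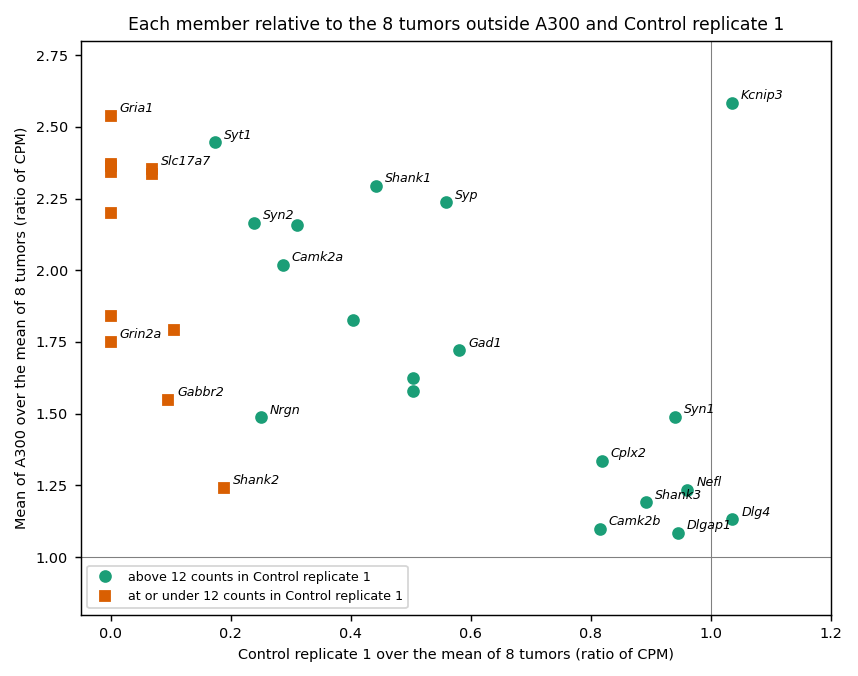
Each point is 1 of the 31 genes, with its level in Control replicate 1 (horizontal axis) and the mean of the 3 A300 tumors (vertical axis), both as a ratio of CPM to the mean of the 8 remaining tumors. The genes nearest to 1 on the vertical axis (Dlgap1, Camk2b, Dlg4 and Shank3) were also between 0.815 and 1.04 on the horizontal axis, while the 12 genes at or under 12 counts in Control replicate 1 (squares) had a median of 2.27 on the vertical axis, and Kcnip3 was near 1 on the horizontal axis and at 2.58 on the vertical axis.

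Summed over the 31 genes, the level was 324.2, 314.3 and 281.6 CPM in the A300 tumors, 164.9, 209.6 and 219.9 CPM in Control, 213.3, 208.0 and 228.2 CPM in ASC and 212.5, 206.1 and 224.7 CPM in ASC300. The 3 A300 tumors were highest and Control replicate 1 lowest, and the other 8 lay between 206.1 and 228.2 CPM. The ratio of the A300 mean to the Control mean was 1.55 ± 0.25 (propagated SD, n = 3 and 3). The sum is carried by the abundant genes such as Dlg4 and Shank3, and the median of the 31 single ratios was 2.44. Against Control replicates 2 and 3 alone that median was 2.07.

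The next comparison asks how tumors with ASC in the implant stood beside Control tumors, both without iAs. It shares the Control tumors with the contrast that chose the genes. Of the 31 genes, 27 had a higher fitted level in ASC, where 49.5% of all genes did. The median log2 fold change was 0.57 beside 0.00 over all genes tested. Without Control replicate 1 the median was 0.19 and 23 of the 31 genes were higher, where 52.4% of all genes were. None of the 31 passed edgeR's quasi-likelihood test (adjusted p under 0.05 and at least 1.5-fold), where 0.721% of all genes did. At an unadjusted p under 0.05, 6 genes were higher (Shank1, Syn2, Stmn2, Nefh, Nrgn and Shank3) and Dlg4 was lower, 7 of 31 in all, where 15.4% of all genes tested were under that p. DESeq2, which gave an adjusted p to 27 of the 31, called Shank1 and Syn2, 2 of 27, where it called 3.04% of all genes with an adjusted p.

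Shank1 had 1.15, 1.18 and 0.909 CPM in ASC and 0.393, 0.537 and 0.304 CPM in Control, without overlap, and Control replicate 1 was not the lowest. Its log2 fold change was 1.39 ± 0.34 (SE), with an edgeR adjusted p of 0.0935, and 1.36 without Control replicate 1. Syn2 had 1.88, 3.35 and 2.45 CPM in ASC and 0.475, 1.17 and 1.41 CPM in Control. Its log2 fold change was 1.33 ± 0.40 (SE), with an edgeR adjusted p of 0.165, and 1.00 without Control replicate 1. In all, 9 of the 31 genes lay above Control without overlap, where 9.94% of all genes did, and Dlg4 lay below, where 9.01% did. The 9 were Syn2, Syt1, Shank1, Shank3, Nrgn, Kcnip3, Slc32a1, Nefh and Stmn2. Against Control replicates 2 and 3 alone the count was again 9, where 16.1% of all genes did.

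ASC300 tumors were also set against Control, again with shared Control tumors. Of the 31 genes, 26 had a higher fitted level, where 47.3% of all genes did, with a median log2 fold change of 0.39 beside -0.02 over all genes. Without Control replicate 1 the median was 0.03 and 18 of the 31 genes were higher, near the 49.7% of all genes that were. Without Control replicate 3 the medians of the ASC and ASC300 comparisons with Control were 0.97 and 0.61. None passed edgeR's test, where 0.807% of all genes did, and DESeq2 called none of the 24 to which it gave an adjusted p, where it called 2.64% of all such genes. At an unadjusted p under 0.05, 3 genes were higher (Shank1, Nefh and Syn2), where 15.2% of all genes were under that p in either direction. The smallest p values were those of Shank1, at 1.14, 0.830 and 1.07 CPM in ASC300 (log2 fold change 1.29 ± 0.34 SE, edgeR adjusted p 0.106, and 1.26 without Control replicate 1), and Nefh, at 0.707, 0.928 and 1.13 CPM beside 0.269, 0.441 and 0.607 CPM in Control (1.06 ± 0.46 SE, edgeR adjusted p 0.30, and 0.81 without Control replicate 1). The groups did not overlap for 6 genes, all higher in ASC300 (Syp, Shank1, Shank3, Nrgn, Nefh and Stmn2), where 13.5% of all genes were higher and 12.2% lower in this way. Against Control replicates 2 and 3 alone 6 genes were higher, where 19.5% of all genes were. Grin2b was lower, as were 4033 of the 21664 genes tested without Control replicate 1.

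The comparison of ASC300 with ASC gives the difference with iAs in the presence of ASC. The levels it compares come from none of the tumors on which the genes were chosen. Here 7 of the 31 genes had a higher fitted level in ASC300, where 48.6% of all genes did, and the median log2 fold change was -0.13, beside -0.01 over all genes. edgeR called none of the 31 and none of the 20818 genes tested (0%). At an unadjusted p under 0.05 edgeR had 1 of the 31, Dlgap1, where 3.21% of all genes were, and DESeq2 called none of the 31, where it called 0.0359% of all genes with an adjusted p. Dlgap1 had 8.25, 6.75 and 10.1 CPM in ASC300 and 6.66, 5.23 and 5.06 CPM in ASC, a log2 fold change of 0.57 ± 0.21 (SE) with an edgeR adjusted p of 1.00. Dlg4 was next, with a log2 fold change of 0.15 ± 0.10 (SE) and an edgeR adjusted p of 1.00. The groups did not overlap for 5 genes: Dlgap1 was higher, where 4.17% of all genes were, and Syt1, Grin2b, Kcnip3 and Slc17a7 were lower, where 3.91% of all genes were. The edgeR SEs and p values of ASC300 vs ASC also rest on the Control and A300 tumors. The spread of each gene was fitted over the tumors of all groups. The absence of edgeR calls is therefore not independent of the tumors that chose the genes. With only the 6 tumors compared in the fit, edgeR again called none of the 31. A p that misses the threshold in 3 against 3 tumors does not show that the levels were equal.

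**Figure D3:**
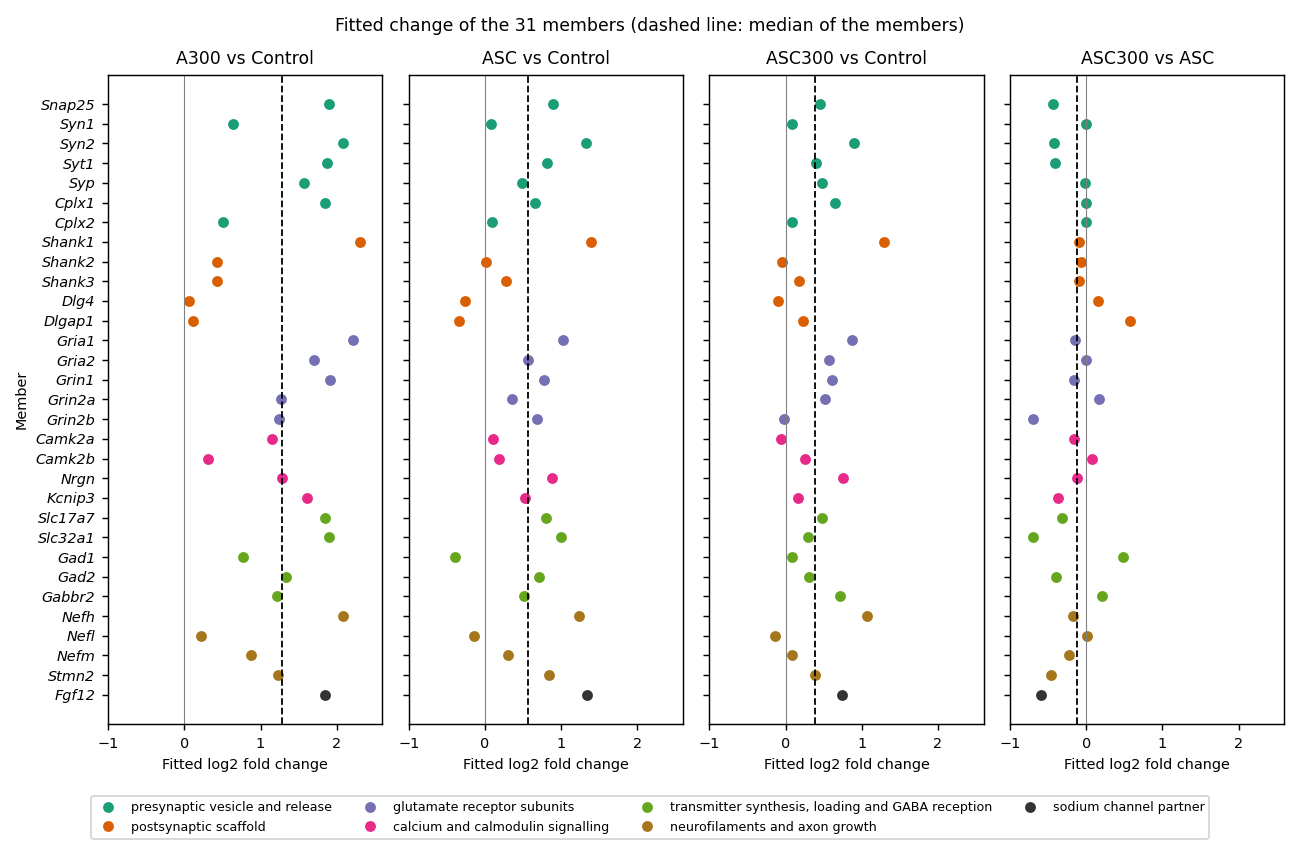
Fitted log2 fold changes (horizontal axes) of the 31 genes (rows, colored by role) in 4 comparisons, with a dashed line at the median of the 31. The medians were 1.29 for A300 vs Control, 0.57 for ASC vs Control, 0.39 for ASC300 vs Control and -0.13 for ASC300 vs ASC, and the first 3 comparisons share the Control tumors.

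By role, the median log2 fold change in A300 vs Control was 1.85 for the 7 presynaptic genes, 1.71 for the 5 receptor subunits, 1.34 for the 5 genes of transmitter handling and GABA reception, 1.22 for the 4 calcium genes, 1.05 for the 4 cytoskeletal genes and 0.43 for the 5 scaffold genes. Without Control replicate 1 these medians were 1.33, 1.14, 1.07, 0.84, 0.85 and 0.08. In ASC300 vs ASC the medians, in the same order, were -0.02, -0.15, -0.32, -0.14, -0.20 and -0.07. The order of the roles is a description of genes of differing number and abundance.

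Other nervous system genes were described beside the 31. Over all genes tested, 14.5% lay above Control in A300 without overlap and 15.4% below. The counts of all marker lists that follow are to be read beside these shares. Of 60 further synaptic and neuronal genes, 35 lay above Control in A300 without overlap and 1 lay below, with a median log2 fold change of 1.22 (0.88 without Control replicate 1), and 15 were at 0 in Control replicate 1. Among the most abundant of the 60, Nlgn2 and Vamp2, which are used in other tissues too, had log2 fold changes of 0.18 and 0.12. The summed level was carried by the abundant genes, and the 60 together had 1336 to 1411 CPM in Control and 1507 to 1568 CPM in A300. Only Tubb3, a neuronal tubulin that some tumor cells also make, was called among the 60, and it was called both in ASC vs Control (log2 fold change 1.42) and in ASC300 vs Control (1.53). It is named because of this call.

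The genes outside the list whose log2 CPM over the 12 tumors was most like the mean of the 31 included Kif1a, Adgrb2, Chgb, Tubb4a, Hpca, Phf24, Slc1a2, Gpm6a and Slc6a11, with Pearson correlations from 0.981 to 0.963. Kif1a, a motor that carries synaptic vesicle precursors along axons, had 408, 448 and 431 counts in A300, 17, 181 and 154 in Control, 205, 129 and 212 in ASC and 158, 163 and 218 in ASC300. Slc1a2 and Slc6a11, the transporters by which astrocytes take up glutamate and GABA, were among them. Slc6a11 had 160, 157 and 151 counts in A300 and 0, 64 and 43 in Control.

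Most markers of oligodendrocytes and some of astrocytes were also higher in A300 and low in Control replicate 1, while none of 6 microglia markers lay above Control in A300, with a median log2 fold change of -0.19. Of 12 oligodendrocyte markers, 9 lay above Control in A300 without overlap and 6 were at 0 in Control replicate 1, with a median log2 fold change of 1.22 (1.01 without that tumor). Their summed level was 62.4 to 86.1 CPM in Control, 86.6 to 94.1 in ASC, 117.3 to 146.3 in A300 and 83.8 to 90.1 in ASC300. Mobp, a myelin protein of oligodendrocytes, had 672, 577 and 580 counts in A300, 0, 210 and 199 in Control, 237, 195 and 239 in ASC and 203, 261 and 204 in ASC300, with the A300 tumors highest and Control replicate 1 lowest, as for Snap25. Mbp (2028, 1987 and 2061 beside 654, 1193 and 843 counts), which Schwann cells also make, was likewise above Control, and Cnp, made by many cells, had between 1425 and 2256 counts in every tumor. Of 10 astrocyte markers, 6 lay above Control, and 3 were at 0 in Control replicate 1, with a median log2 fold change of 1.12 (0.98 without that tumor). Their summed level of 300.4 to 450.7 CPM in Control and 346.2 to 353.2 in A300 was carried by Gja1, a connexin of many cell types, at 10038 to 19719 counts. Slc1a2 had 738, 884 and 516 counts in A300 and 54, 254 and 266 in Control.

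The proportion between some of these genes was compared across the 11 tumors with Snap25 counts, for 7 ratios to Snap25 chosen after their values were seen. Mobp counts were between 0.441 and 0.791 of the Snap25 counts, and between 0.611 and 0.715 in A300. Slc17a7 counts were between 0.238 and 0.395 of Snap25, and Syt1 counts between 0.472 and 0.706. The other ratios were those of Gfap (0.0663 to 0.338), Slc6a11 (0.106 to 0.226), Gria1 (0.109 to 0.245) and Slc1a2 (0.496 to 0.935). In 6 of the 7 ratios the A300 tumors lay inside the range of the 8 other tumors. The exception was Slc1a2, whose ratio was 0.636 to 0.935 in A300 and 0.496 to 0.857 in the 8 others.

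**Figure D4:**
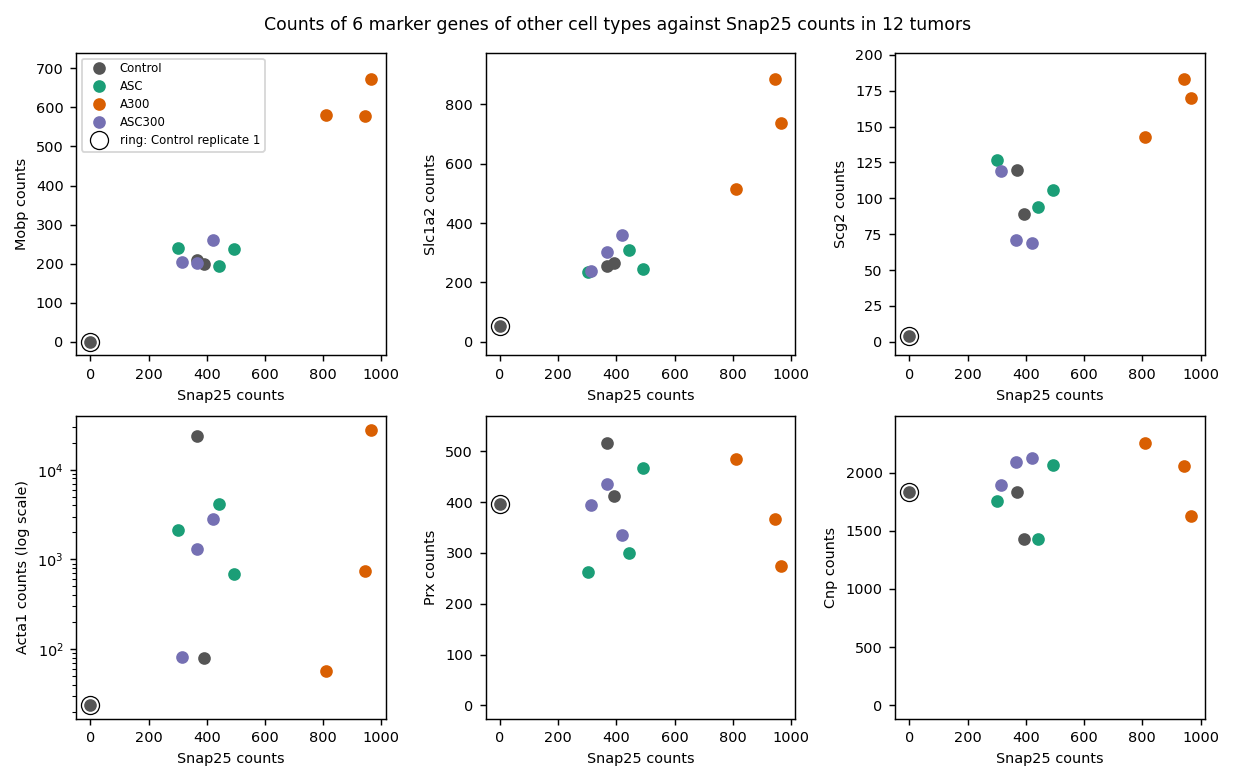
Raw counts of 6 marker genes of other cell types (vertical axes, logarithmic for Acta1) against the raw counts of Snap25 (horizontal axes) in the 12 tumors, colored by group, with a ring around Control replicate 1. Mobp, Slc1a2 and Scg2 counts were highest in the 3 A300 tumors and lowest in Control replicate 1. Acta1 (24 to 27619 counts) was also lowest in Control replicate 1 but ran from 57 to 27619 counts in A300. Prx (263 to 517 counts) took another order, and Cnp stayed between 1425 and 2256 counts.

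Markers that separate kinds of neurons were mostly low or did not follow the 31 genes. The 12 forebrain neuron markers summed to 57.5 to 63.8 CPM in Control and 60.0 to 65.8 in A300. Of these, 4 lay above Control without overlap, 4 were at 0 in Control replicate 1 and the median log2 fold change was 0.07. Of these markers, Dlx2 had between 224 and 468 counts and Lhx6 between 233 and 402 in every tumor. Of the 10 cerebellar neuron markers, Gabra6 was at 0 in all 12 tumors, 4 were at or under the floor in all of them and 7 were at 0 in Control replicate 1. Their sum of 1.61 to 89.5 CPM in Control and 3.0 to 57.8 in A300 was carried by Pvalb, which fast muscle also makes. Of the 14 peripheral neuron markers, Dbh, the noradrenaline-forming enzyme of sympathetic neurons, was at 0 in all 12 tumors, 6 were at or under the floor in all of them and 7 were at 0 in Control replicate 1. Their sum of 22.4 to 29.4 CPM in Control and 22.5 to 27.8 in A300 was carried by Isl1 and Prph. Of the 12 neuroendocrine markers, Nkx2-1 was at 0 in all tumors, 2 were at or under the floor in all and 4 lay above Control in A300. Their sum was 38.6 to 43.3 CPM in Control and 46.9 to 58.5 in A300. Scg2, a granin of secretory vesicles that neurons also make, had 170, 183 and 143 counts in A300 and 4, 120 and 89 in Control.

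Other tissues varied between tumors, and none of their summed levels lay above Control in A300 without overlap. Of the 10 skeletal muscle markers none lay above or below Control without overlap in A300. Acta1, the skeletal muscle actin, had 27619, 740 and 57 counts in A300 and 24, 24035 and 80 in Control, and the muscle genes summed to 2.89 to 2149 CPM in Control and 5.90 to 2124 CPM in A300. Prx, a protein of myelinating Schwann cells, had 274, 366 and 484 counts in A300 and 396, 517 and 413 in Control, and the 10 Schwann cell markers summed to 98.4 to 124.2 CPM in Control and 93.2 to 127.3 in A300. The 6 adipocyte markers all lay below Control in A300, at 45.0 to 69.5 beside 129.7 to 275.6 CPM, with the highest Control value in replicate 1. The 6 microglia markers (115.9 to 127.8 CPM in Control and 100.6 to 129.4 in A300), 6 leukocyte markers (282.1 to 464.8 and 342.4 to 374.0), 8 mesenchymal stromal cell markers (3036 to 3727 and 3079 to 3816) and 5 red blood cell markers (73.7 to 131.8 and 74.5 to 173.4) overlapped in their sums. Single leukocyte genes were high in Control replicate 1. The B cell gene Cd79a had 2274 counts there and 19 to 95 in the other 11 tumors. The T cell gene Cd3e had 349 counts there beside 55 and 15 in Control replicates 2 and 3. Cd3e was not particular to that tumor, with 196, 196 and 352 counts in ASC, 265, 196 and 356 in ASC300 and 27, 45 and 77 in A300. The part of these cells in the low neuronal counts of Control replicate 1 was not tested.

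Markers of the labelled and implanted cells were also looked up. The mesenchymal markers Col1a1, Col1a2, Pdgfra and Ly6a were present in every tumor, and Ly6a was called in both ASC vs Control (log2 fold change 1.75) and ASC300 vs Control (1.75). The 10 prostate and epithelial markers summed to 145.9 to 436.2 CPM in Control and 174.2 to 208.8 CPM in A300. Krt8 had 16302 counts in Control replicate 1 and between 1152 and 5523 in the other 11 tumors. Tmprss2, a protease of prostate epithelium, was at or under the floor in every tumor. The 10 regulators of neuronal genes summed to 722.1 to 782.9 CPM in Control and 723.9 to 758.2 in A300, with a median log2 fold change of -0.23. Of the 7 tested, 3 lay below Control in A300 without overlap and 1 above.

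The part that RNA of brain glia, muscle, fat or the Control tumor with few nervous system counts has in the levels of the 31 genes was not tested, and whether their RNA came from tumor cells, from other cells of the mouse or from material carried over between samples or libraries cannot be told apart in these data. The p-values rest on the spread between 3 tumors of separate mice in each group, and an exact test of 3 against 3 could not give a p under 0.1.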

How the data were processed

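RNA from 12 tumors, 3 in each of 4 groups, was sequenced by the authors as paired-end reads from stranded poly(A) libraries on an Illumina NovaSeq. According to the submitters' processing notes and the paper's methods, the authors trimmed reads with cutadapt 1.1.0, mapped the trimmed reads with HISAT2 2.0 and estimated expression with StringTie 1.3.4 and Ballgown. The deposited counts are whole numbers per Ensembl gene without normalization, and the step that made them from these outputs, the genome build and the annotation are not given in the sources used here.

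Symbols and exon lengths were taken from GENCODE M21 by gene ID (55141 of 55401 genes matched). In R 4.3.3, edgeR 4.0.16 was run with limma 3.58.1 on the counts as deposited: filterByExpr by group (20818 genes), TMM, a quasi-likelihood fit with 1 mean per group over all 12 tumors, and Benjamini-Hochberg adjustment over all genes tested. A call needed an adjusted p under 0.05 and a 1.5-fold change. Log2 CPM carried a prior count of 2. The procedure was tested on simulated data. DESeq2 1.42.0 was an alternative, with other normalizations, filters and sets of tumors, and a correction for GC content was added after seeing the data.

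The 31 genes and all gene lists were chosen with earlier results of these data known. Named are all 31 genes, of each other list up to 4 genes with the highest mean CPM and those at 0 in all tumors, and the 10 most similar genes. Some genes that this rule names are not reported here. An adjusted p is printed for the 2 smallest p values of a tested comparison. Rest, Tubb3, Tmprss2, Cd79a, Cd3e, Gfap, Slc6a11 as an astrocyte gene and the pairs for ratios are named beside this rule, and were picked with their values in view. Flow cytometry, RT-qPCR and day 26 were not analysed here.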

Additional observations from a re-analysis of the deposited data

Results flagged for a closer look

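For 4 of the 31 genes the groups did not overlap in either iAs comparison and the directions were opposite: A300 tumors were higher than Control tumors, and ASC300 tumors were lower than ASC tumors. Of all 20818 genes tested, 0.403% did so. The A300 side of this pattern is the contrast that chose the genes, so the 2 shares only describe the list. For ASC300 below ASC alone, 4 of the 31 did not overlap, where 3.91% of all genes tested did not. Grin2b had a log2 fold change of -0.70 with ASC (ASC300 vs ASC) and 1.25 without ASC (A300 vs Control). For Syt1 these values were -0.41 and 1.87, for Kcnip3 -0.37 and 1.61, and for Slc17a7 -0.32 and 1.85. Without Control replicate 1 the values without ASC were 0.75 for Grin2b, 1.43 for Syt1, 1.79 for Kcnip3 and 1.34 for Slc17a7. The difference between the effects with and without ASC was not tested, because the 31 genes were chosen on the comparison of A300 with Control. None of the 4 was called in ASC300 vs ASC by edgeR or DESeq2, and Control replicate 1 was the lowest of the 12 tumors for Grin2b, Syt1 and Slc17a7 but not for Kcnip3.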

How the results depend on the processing

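In ASC vs Control, where edgeR called 0 of 31 genes, the count was 1 (Shank1) with at least 10 counts required in every tumor, which left 20 of the 31 genes in the test, 2 (Shank1 and Syn2) with the DESeq2 Wald test and 5 with an unadjusted p under 0.05 and the same 1.5-fold change. In ASC300 vs Control it was 3 with an unadjusted p and the 1.5-fold change. The share of all genes was not computed with the 10-count filter or with the unadjusted p and 1.5-fold change. Without that share these counts only describe the 31 genes. ASC300 vs ASC gave 0 under every alternative run. Among these, the unadjusted p kept the 1.5-fold change, which Dlgap1 (unadjusted p under 0.05, log2 fold change 0.57) did not reach. When 1 tumor was left out, all 3 comparisons kept 0 calls, and the median log2 fold change of the 31 genes ran from 0.19 to 0.97 in ASC vs Control, from 0.03 to 0.61 in ASC300 vs Control, from -0.21 (without ASC replicate 1) to -0.066 (without ASC replicate 2) in ASC300 vs ASC and from 1.07 to 1.66 in A300 vs Control. The lowest values of the comparisons with Control were those without Control replicate 1, and the highest those without Control replicate 3 (ASC and ASC300) or 2 (A300). The summed level of A300 over Control was 1.43 to 1.64 with 1 tumor left out. As the median over genes the ratio was 2.44, and 2.07 against Control replicates 2 and 3 alone. Of the motifs, 0 of 20 genes held any of the 3 in the bases after the start. Of 607 alternative values of single genes in A300 vs Control, 5 were below 0: Shank2 (-0.03 without Control replicate 1), Dlg4 (-0.01 without A300 replicate 3 and -0.11 with the GC correction), Dlgap1 (-0.06 without A300 replicate 3) and Nefl (-0.01 without A300 replicate 1). Correlations of the deviations of same-numbered tumors (-0.12 to 0.17) lay within those of tumors with unlike numbers (-0.22 to 0.25). The numbers were therefore not treated as pairs, but such correlations cannot show that same-numbered tumors shared no step. With the replicate number as a block, calls stayed at 0 in the 3 tested comparisons and the medians were 0.70, 0.40, -0.10 and, for A300 vs Control, 1.40. Causes of these shifts were not tested. Counts of up to about 12 limit Grin2a, Slc32a1 and Fgf12 most.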
